A study of Mus musculus and Rattus norvegicus with 2 samples.

Results

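miR-22 is a microRNA (miRNA) that is cut as a double strand from a hairpin precursor, and its 2 arms are miR-22-5p and miR-22-3p. It was followed here in small RNA libraries of purified sperm from the cauda epididymis, the tail end of the epididymal duct, where mature sperm are held. Members were all sequences that the deposited tables named miR-22 of the mouse or the rat, any arm, plus sequences of any label whose first 18 nt were those of the leading mouse miR-22 sequence. They numbered 20 of 86644 distinct mouse sequences, with 838 of 691381 listed reads, and 31 of 137388 distinct rat sequences, with 1249 of 2102735 listed reads. The gene was selected on its read counts in these libraries, so its level and its forms are given as a description with no test.

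Mouse sperm were from the C57BL/6 strain at 2 months of age, and rat sperm from young adult Sprague Dawley animals weighing 450 g. Both held RNA of 18 to 45 nt, and no treatment or mutation was given for either. There was 1 library per species, and the number of animals behind each is not stated in these sources. No replicate check or test between species was therefore possible, and all intervals are exact 95% intervals for counting error alone, because reads amplified by PCR cannot be taken as separate molecules. Overlap of 2 such intervals is given as a description. It does not show that 2 values are equal, or that their difference lies within counting error.

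A miRNA guides silencing proteins to mRNAs, mainly by pairing of its bases 2 to 8, the seed, and usually 1 arm of the precursor is kept while the other is degraded. Of miR-22 the 3p arm is the kept one in most tissues. It is widely expressed and is abundant in heart and skeletal muscle. Sperm carry miRNAs from their own development and take up others from vesicles released by the epididymis.

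The precursor and both arms are shown because all results below refer to them. In the hairpin the capitals mark the 5p arm and then the 3p arm, and in each arm they mark the seed.
mouse miR-22 hairpin: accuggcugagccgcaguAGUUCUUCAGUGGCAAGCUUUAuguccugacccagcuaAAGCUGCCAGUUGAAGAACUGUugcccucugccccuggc
miR-22-5p: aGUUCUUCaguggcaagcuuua
miR-22-3p: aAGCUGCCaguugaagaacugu
These are RefSeq sequences on GRCm38.p6. The hairpin of 95 nt lies on the plus strand at chr11:75463716-75463810, the 5p arm at chr11:75463734-75463755 and the 3p arm at chr11:75463772-75463793. In the GENCODE M21 annotation, also on GRCm38, the hairpin is inside exon 2 of both transcripts of its host gene, the noncoding Mir22hg (chr11:75461539-75466676). Among 1679 mature mouse miRNAs in the RefSeq table, 1 had the seed of miR-22-3p, miR-22-3p itself. No rat precursor was used. The rat library's leading sequence was identical to the mouse miR-22-3p, and the mismatch notes deposited with longer rat reads give T and G as the template bases 23 and 24, as in the mouse hairpin.

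Every listed read of miR-22 came from the 3p arm. By name, 837 mouse reads of 19 sequences and 1239 rat reads of 28 sequences were miR-22-3p, and 0 reads in either library were miR-22-5p. The share of the 5p arm among named miR-22 reads was thus 0 of 837 in the mouse, which allows a share of up to 0.358% at 3 counts, and 0 of 1239 in the rat, which allows up to 0.242%. A search of all listed sequences of any label along the hairpin, with up to 2 mismatches, found 838 mouse and 1252 rat reads on the 3p arm, 3 more in the rat than the members, under other labels and with a changed start. It found 0 reads on the 5p arm, 0 elsewhere on the hairpin and 0 on its opposite strand, in both libraries. As exact matches, 0 listed reads of either library lay in the mouse Mir22hg transcripts outside the hairpin. For the rat this search could find only sequences identical to the mouse transcripts. The rat 0 therefore does not bound reads from the rat host transcript.

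**Figure D1:**
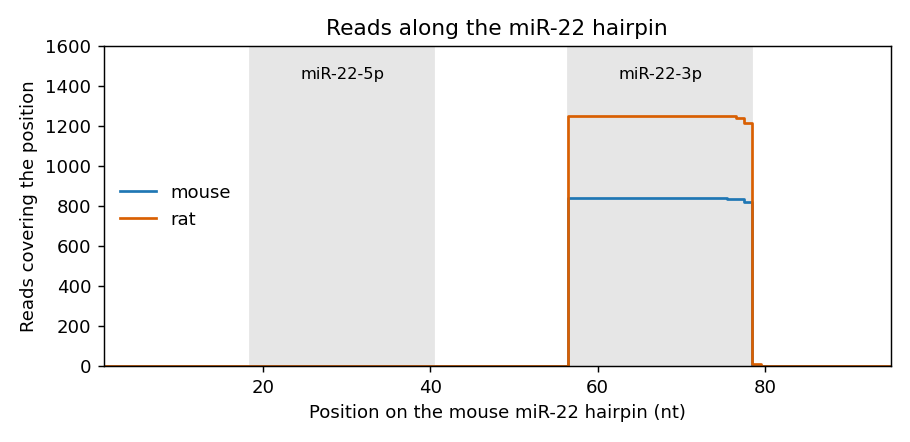
Number of reads that cover each position of the 95-nt mouse miR-22 hairpin, in the mouse and rat libraries, with reads placed at up to 2 mismatches. Grey bands mark the 5p arm at positions 19 to 40, with 0 reads in both libraries, and the 3p arm at positions 57 to 78, where coverage starts and ends almost as a block.

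An arm without reads was common among abundant miRNAs of these libraries. The other arm was counted, by the first 18 nt of its RefSeq sequence, for 7 other miRNAs that had at least 100 reads in each library and a start of their own in the RefSeq table. Its median share was 0% in both libraries. The highest was that of miR-30a, with 0.613% in the mouse, from 2 reads, and 1.60% in the rat, from 5 reads.

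miR-22-3p was among the leading miRNAs of both libraries, and its level was somewhat higher in the rat when set against all miRNA reads. Its 837 mouse reads (interval 781 to 896) were 35606 reads per 1000000 reads with a mature miRNA name (RPM), or 3.56% of them. Its 1239 rat reads (1171 to 1310) were 47744 RPM, or 4.77%. The log2 ratio of mouse over rat was -0.42 (-0.55 to -0.30, with a pseudocount of 1 RPM), so that the rat level was 1.34-fold the mouse level. Against all listed reads the order turned, with 1211 mouse and 589 rat reads per 1000000, a log2 ratio of 1.04 (0.91 to 1.17).

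A change of scale shifts every log2 ratio by the same amount, set by the library totals, apart from the effect of the pseudocount at low counts. The place of miR-22-3p beside the median was therefore bound to be similar on both scales. Among 86 mature miRNAs with at least 10 reads in either library, the median log2 ratio was -0.41 when scaled to miRNA reads and 1.01 when scaled to listed reads. miR-22-3p lay 0.01 below the median on the first scale and 0.03 above it on the second, with 43 of the 86 above it and 42 below it on the first. Of the 86 miRNAs, 67.4% were at least 2-fold apart between the libraries on the first scale, and miR-22-3p was one of the 28 that were not. On the second scale 68.6% were past that size, miR-22-3p included. These shares were counted by name, which can differ from a count by sequence. By the first 18 nt under any label, miR-10b-5p had 8132 mouse and 3478 rat reads, against 8004 and 2 by name. In the same way miR-148a-3p had 149 and 166, against 125 and 0, while miR-6240 had 85 and 849, against 168 and 0. The share at least 2-fold apart was not counted by sequence. miR-22-5p, with 0 reads, gives no ratio.

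By name miR-22-3p ranked 6 in the mouse and 5 in the rat. In the mouse the neighbours in that order were miR-16-5p with 1278 reads and miR-375-3p, a miRNA of endocrine and epithelial cells, with 380. In the rat they were miR-191-5p with 2920 and miR-143-3p, known from smooth muscle, with 813. The counting interval of miR-22-3p overlapped that of none of these 4 neighbours. The rat order depends on names, because rat reads named miR-10a-5p, 6646 in all, include sequences that start like miR-10b-5p. Counted by the first 18 nt under any label, with miR-10a-5p and miR-10b-5p apart, miR-22-3p ranked 6 in both libraries, with 822 mouse and 1217 rat reads.

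The miRNAs nearest in level to miR-22-3p were taken from the 12 others with at least 100 reads by name in each library. Likeness was the straight distance between log2 RPM values over the 2 libraries. The nearest was miR-16-5p, at 1.45 log2 units, with 1278 mouse and 3083 rat reads. It was followed by miR-143-3p at 1.63, with 2392 and 813 reads, miR-191-5p at 1.92, with 2321 and 2920, miR-99b-5p at 2.72, with 343 and 236, and miR-30a-5p at 2.80, with 300 and 238. None of the 12 was within 1 log2 unit. The nearest, miR-16-5p, had more reads than miR-22-3p in both libraries, while miR-143-3p had more in the mouse and fewer in the rat.

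**Figure D2:**
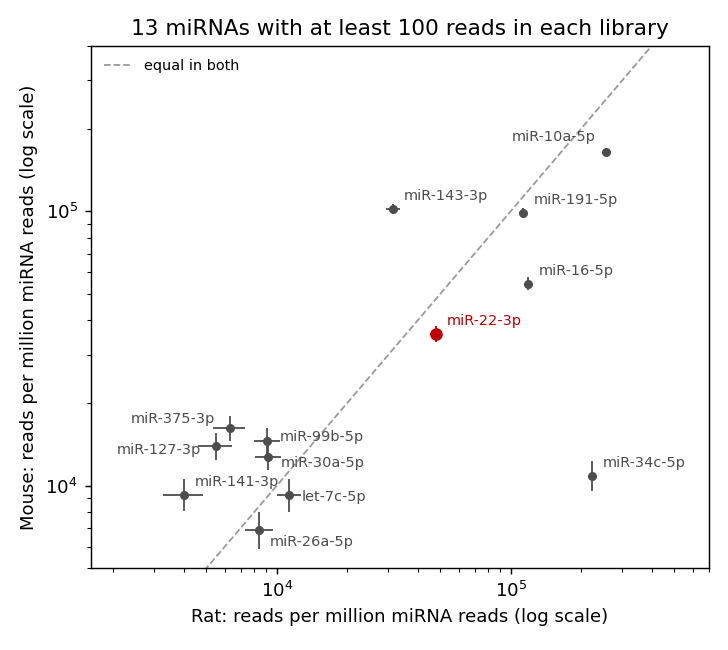
Mouse against rat level, in RPM (reads per 1000000 miRNA reads) on log axes, of the 13 miRNAs with at least 100 reads in each library, counted by name; bars are exact Poisson 95% intervals and the dashed line marks equal levels. miR-22-3p, in red, lies close to the line on its rat side, while miR-34c-5p lies far on the rat side and miR-143-3p on the mouse side.

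Marker miRNAs of the cells that such a sample could hold, counted by name, differed between the libraries. Their part in the level of miR-22-3p was not tested. The 6 markers of sperm and germ cells summed to 11.4% of mouse and 35.1% of rat miRNA reads. Most of the mouse sum was miR-191-5p, and the other 5 summed to 1.5% and 23.9%, most of it miR-34c-5p with 255 mouse and 5785 rat reads. Of the 6, 5 were higher in the rat in RPM, and miR-871-3p, with 53 and 1 reads, was higher in the mouse. On this scale 52 of the 86 miRNAs above were higher in the rat and 34 in the mouse. Against all listed reads miR-191-5p was higher in the mouse, with a log2 ratio of 1.27. The rest of the 5 stayed higher in the rat. The 5 of epididymal epithelium summed to 0.987% and 0.501%, nearly all of it miR-141-3p with 218 and 104 reads. The other 4 summed to 0.0596% and 0.100%. In RPM, miR-200a-3p, with 3 and 18 reads, and miR-200b-3p, with 1 and 2, were higher in the rat. Against all listed reads miR-200a-3p stayed so, with a log2 ratio of -0.84, and miR-200b-3p was higher in the mouse, at 0.33. miR-200c-3p, with 4 and 1 reads, and miR-429-3p, with 6 and 5, were higher in the mouse. The 3 of stroma and smooth muscle summed to 10.3% and 3.25%, nearly all of it miR-143-3p. The other 2, miR-145a-5p with 13 and 15 reads and miR-199a-3p with 7 and 15, summed to 0.0851% and 0.116%. Both were higher in the rat in RPM, miR-145a-5p only slightly, at 553 and 578. Against all listed reads both were higher in the mouse, with log2 ratios of 1.28 and 0.45. All members of these 3 lists had reads in both libraries. The 6 of blood cells summed to 0.174% and 0.00771%, with miR-142-3p and miR-144-3p at 0 in both, miR-150-5p at 0 in the mouse, and miR-451a and miR-486-5p at 0 in the rat. The blood markers were not counted by sequence, so a 0 by name does not show that the sequence is absent. In the rat, miR-148a-3p had 0 reads by name and 166 by the first 18 nt.

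The reads of miR-22-3p were almost all 1 sequence. The forms below are the 5 most abundant of each library and 2 that run past the mature end, and they are shown because the ends and base differences described next are read from them. Capitals mark bases that differ from the hairpin, and positions are counted from 1 at the 5′ end of miR-22-3p.
mature form: aagctgccagttgaagaactgt
21 nt form: aagctgccagttgaagaactg
20 nt form: aagctgccagttgaagaact
T22G form: aagctgccagttgaagaactgG
A2G form: aGgctgccagttgaagaactgt
T5C form: aagcCgccagttgaagaactgt
form with added A: aagctgccagttgaagaactgtA
form with next encoded base: aagctgccagttgaagaactgtt
The mature form had 797 mouse reads and 1153 rat reads. That was 95.1% of mouse miR-22-3p reads (93.4 to 96.5) and 92.3% of rat ones (90.7 to 93.7), and these intervals overlap by a narrow margin. It was the sequence at rank 63 of all listed mouse sequences and at rank 216 of those of the rat. Of the sequences of 22 nt it had rank 3 among mouse and rank 10 among rat sequences.

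The 22 nt length held 818 of 838 mouse reads, 97.6% (96.3 to 98.5), and 1201 of 1249 rat reads, 96.2% (94.9 to 97.2). Of 21 nt there were 14 mouse and 28 rat reads, of 20 nt 4 and 6, and of 19 nt 1 and 4. Longer reads numbered 1 of 23 nt in the mouse, and 9 of 23 nt and 1 of 24 nt in the rat. Shorter reads thus held 2.27% of mouse (1.37 to 3.52) and 3.04% of rat reads (2.16 to 4.15), and longer ones 0.119% (0.00302 to 0.663) and 0.801% (0.385 to 1.47). In each of these pairs the intervals overlap.

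The 5′ end did not vary by name. All 837 mouse and all 1239 rat reads named miR-22-3p started at position 1, which allows a share of other starts of up to 0.358% and 0.242% at 3 counts. This bound holds for named reads only, and reads with an earlier start may not have been given the name. By place on the hairpin under any label, 100% of mouse and 99.8% of rat reads started at position 1. Under another label, 2 rat reads had the mature form preceded by a C that the hairpin does not hold. Reads under other labels also carried the 3′ ends past position 22. Names in these tables were given almost only to reads no longer than the mature sequence: of mouse reads with a miRNA name and a RefSeq length, 1 of 20227 was longer, and in the rat 157 of 18748, of which all but 1 were miR-146b-5p. The single longer mouse read of miR-22-3p was labelled unknown, and the 10 longer rat reads with the shared start were labelled mRNA. A count by name alone therefore leaves out the ends past position 22.

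At the 3′ end, reads that stop short of position 22 on bases of the hairpin made up 2.15% of mouse (18 reads, 1.28 to 3.37) and 2.80% of rat reads (35 reads, 1.96 to 3.88). The 21 nt form accounted for 13 and 26 of these, the 20 nt form for 4 and 6, and a form of 19 nt for 1 and 3. The form with the next encoded base had 0 mouse and 4 rat reads. The mouse count of 0 of 838 allows a share of up to 0.358% at 3 counts, which is above the rat value of 0.320%.

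A 3′ addition was taken as up to 3 final bases after the longest stretch that matches the hairpin. Such reads held 0.835% of mouse (7 of 838, 0.336 to 1.71) and 1.92% of rat reads (24 of 1249, 1.23 to 2.85), and the intervals overlap. Most of them were 22 nt long and differed at the last base, so that a changed base 22 and a base added to the 21 nt form cannot be told apart. The T22G form had 5 mouse and 12 rat reads, T22C 0 and 4, and T22A 1 and 0. Beyond position 22, the form with added A had 1 mouse and 5 rat reads, and 1 rat read ended in a pair of added A bases. The remaining rat reads were 1 of 19 nt ending in an A at position 19 and 1 with T20C, whose last bases match the hairpin in register. The next encoded base is T, so a T added to the mature form cannot be told apart from the encoded form, and in the mouse 1 read stands for all ends past position 22. Differences at base 22 were mostly to G.

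**Figure D3:**
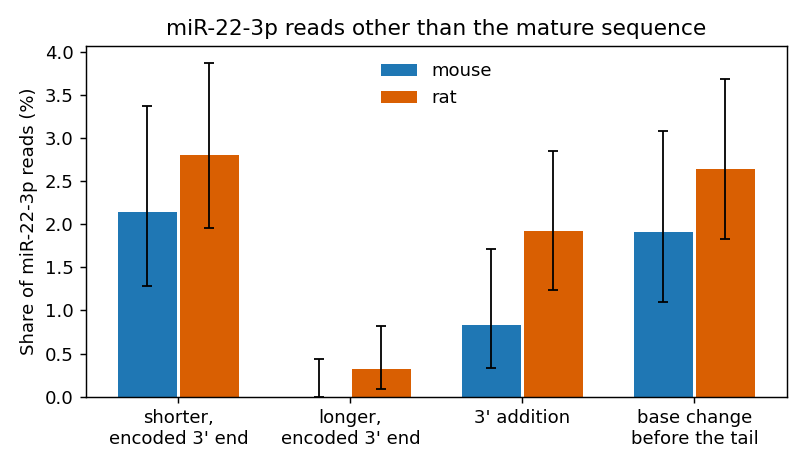
Share of miR-22-3p reads (%) in the mouse and rat libraries that are not the mature sequence, by kind: shorter or longer with encoded bases only, with a 3′ addition, or with a base change before the tail. Bars show shares of 838 mouse and 1249 rat reads with exact Clopper-Pearson 95% intervals, which overlap between the species in every kind.

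Base differences before the tail were rare and scattered, apart from position 2 in the rat. They were found in 16 mouse reads, 1.91% (1.10 to 3.08), and in 33 rat reads, 2.64% (1.83 to 3.69). In reads by name, position 2 differed in 2 of 837 mouse reads, 0.239% (0.0290 to 0.860), and in 15 of 1239 rat reads, 1.21% (0.679 to 1.99), and the intervals overlap. The rat reads were 8 with A2G, 5 with A2C and 2 with A2T, and both mouse reads were A2G. Position 22 differed in 6 of 818 mouse reads that reach it, 0.733%, and in 16 of 1201 rat reads, 1.33%. At each of the 20 other positions there were at most 3 mouse reads, those of the T5C form, and at most 4 rat reads, at position 7.

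Position 2 opens the seed. Reads by name with any change in positions 2 to 8 numbered 7 of the mouse, 0.836% (0.337 to 1.72), and 23 of the rat, 1.86% (1.18 to 2.77), and the intervals overlap. The seed was therefore intact in 99.2% of mouse and 98.1% of rat reads. Among the other 12 abundant miRNAs, the share of named reads that differed at position 2 ran from 0.363% to 1.85% in the mouse, all above miR-22-3p, and from 0% to 2.88% in the rat, with 3 above and 9 below it. The tables give no base qualities, so a base read wrongly and a base that differs in the RNA cannot be told apart.

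**Figure D4:**
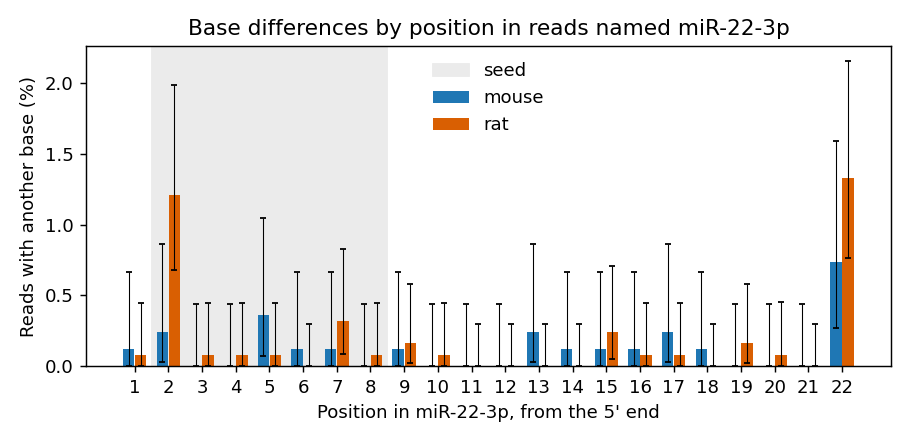
Share of reads named miR-22-3p (%) with a base other than that of the mature sequence, at each position from the 5′ end, over reads that reach the position; bars are exact Clopper-Pearson 95% intervals and the grey band is the seed. Positions 2 and 22 in the rat, at 1.21% and 1.33%, stand above the other positions.

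Over all positions, the deposited tables noted a mismatch for 22 of the 837 mouse reads named miR-22-3p, 2.63%, and for 51 of the 1239 rat reads, 4.12%. These shares were low beside those of the other 12 abundant miRNAs, of which 11 lay above miR-22-3p in each library and miR-16-5p, with 1.96% and 2.40%, lay below. Their medians were 5.40% and 6.06%. The highest were miR-375-3p in the mouse, with 31.6%, and in the rat miR-10a-5p, with 56.1%, whose name there includes reads with the start of miR-10b-5p.

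The uniformity of miR-22-3p was compared with that of the same 12 miRNAs, each counted under any label over reads that share the first 18 nt of its most abundant mouse sequence. In this count the leading sequence held 97.0% of mouse miR-22-3p reads (797 of 822, 95.5 to 98.0) and 94.7% of rat ones (1153 of 1217, 93.3 to 95.9). Both were the highest of the 13, against medians of the others of 60.9% and 58.0% and ranges of 39.6% to 94.8% and 31.1% to 93.5%. Its interval overlapped that of 1 other in each library: miR-141-3p of the epithelial miR-200 family in the mouse, with 94.8% (90.9 to 97.4), and miR-34c-5p, a miRNA of male germ cells, in the rat, with 93.5% (92.8 to 94.1). Counted by name instead, miR-22-3p at 95.2% was above all 12 in the mouse, and at 93.1% in the rat it was below miR-34c-5p at 93.8% and above the other 11. The start counted for let-7c-5p is shared with let-7a-5p. Among the miRNAs nearest in level, miR-16-5p had 57.3% in the mouse and 60.2% in the rat, miR-143-3p 48.4% and 31.1%, miR-191-5p 54.1% and 76.0%, miR-99b-5p 44.8% and 51.7%, and miR-30a-5p 84.9% and 66.9%.

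**Figure D5:**
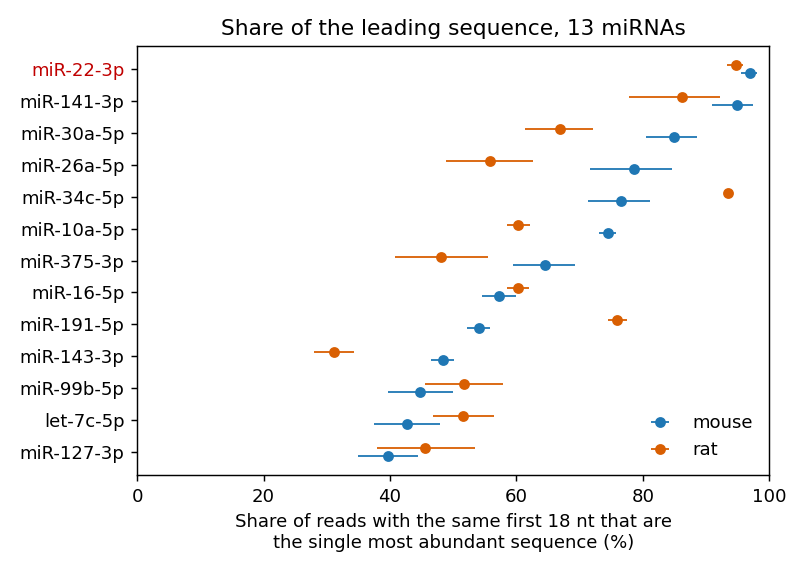
Share (%) of reads with the same first 18 nt that are the single most abundant sequence, for 13 miRNAs with at least 100 reads by name in each library, with exact Clopper-Pearson 95% intervals. Of these 13, miR-22-3p has the highest share in both libraries, 97.0% in the mouse and 94.7% in the rat. Only miR-141-3p in the mouse and miR-34c-5p in the rat overlap its interval.

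For 7 of the 12, with a start of their own and a hairpin in the RefSeq table, the ends could be set against the encoded sequence, using the mouse hairpins for both species. Reads short of the RefSeq 3′ end made up 2.19% for miR-22-3p in the mouse and 2.88% in the rat, below all 7 others, which ran from 14.6% to 96.2% and from 12.02% to 96.04%. This share gives the distance from the RefSeq end and not how much the end varied. The highest in both libraries was miR-141-3p, of which 1 leading sequence of 21 nt held 94.8% of mouse and 86.1% of rat reads. Reads longer than the RefSeq sequence made up 0.122% and 0.822%, again below all 7, at 0.469% to 22.8% and 2.35% to 25%. The 3′ additions of miR-22-3p, 0.852% and 1.97% in this count, did not stand apart: 6 of 7 were above it in the mouse and 5 of 7 in the rat, and the highest, miR-127-3p of an imprinted cluster, had 32.9% and 20.7%.

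Most distinct forms of the rat, and 50.0% of those of the mouse, were found in 1 library only, while most reads lay in forms found in both. Of 20 mouse and 31 rat sequences, 10 were the same, and in them lay 98.8% of mouse and 97.4% of rat miR-22-3p reads. They were 50.0% of the mouse list and 32.3% of the rat list. The mature form makes up most of those reads: without it, 31 of 41 mouse and 63 of 96 rat reads were in shared forms. Sequences with a single read numbered 14 and 18. At 838 reads, the mouse depth, 24.7 rat sequences would be listed on average, against 20 in the mouse. Shared forms were not counted for other miRNAs or for all listed sequences. The shares found in both libraries are therefore not read as a trait of miR-22.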

How the data were processed

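Small RNAs of 18 to 45 nt from cauda sperm were measured in 1 mouse and 1 rat library. The deposited values are counts: per the file headers, the authors gave each distinct sequence its number of reads, strand, 1 database entry (miRBase, Rfam or GenBank) and up to 2 mismatches. The submitters' processing notes name Bowtie 0.12.7 as a tool and mm9 and rn5 as builds, without saying for which step. Neither read trimming nor database order is stated in these sources.

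Totals were 691381 mouse and 2102735 rat reads, of which 23507 and 25951 carry a mature miRNA name. A further 2535 mouse lines, whose identifier a spreadsheet turned into a date, have no count. None is named miR-22, and they were left out. The identifiers imply 78279 mouse and 63001 rat sequences that were not analysed here. Minus-strand sequences were turned back.

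The members, lists and rules were chosen with earlier results of these data known. Named miRNAs were both arms of miR-22, the 5 nearest in level among miRNAs with at least 100 reads in each library, those miRNAs as background, and marker lists of 4 cell types. Of the rat names, 12 were replaced by mouse forms. Reads were placed ungapped on the RefSeq mouse hairpin (GRCm38.p6). Ends, tails of at most 3 nt and mismatches were read off by custom code in Python 3.11.15 with pandas 2.3.3 and SciPy 1.17.1, tested on simulated data. Shares carry Clopper-Pearson and counts Poisson 95% intervals. No test was possible with 1 library per species. Alternatives covered naming, scaling, count and length filters, pseudocounts and the tail rule. The exact-sequence share, the restored dates and a second tail rule were added after seeing the data.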

Additional observations from a re-analysis of the deposited data

How the results depend on the processing

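Of 74 alternative values for 20 results, 54 stayed within the counting interval of the value reported, 19 moved and 1 reversed. Some of the 54 could not move, such as a level of 0 on another scale, so the tally does not measure robustness. Scaled to all listed reads, the level became 1211 (mouse) and 589 (rat) reads per 1000000 and the log2 ratio turned to 1.04. Over perfect matches only, the rat level was 57225 RPM and the log2 ratio -0.63. With each distinct sequence counted once, the 22 nt share was 75.0% (mouse) and 71.0% (rat), the 3′ addition share 15.0% and 19.4%, the mismatch share 65.0% and 64.5%, and the mature form 5.0% and 3.23%. Over sequences of at least 5 reads, the mismatch share fell to 0% and 0.661% and the mature form held 97.8% and 95.3%, and over the shared 18 nt start it held 97.0% and 94.7%. The share of miRNAs at least 2-fold apart was 78.1% with 1 read as the minimum. No causes were tested. No paired analysis was possible because there was 1 library per species and no test. Depth limits all forms of a few reads, and the 5p arm is bounded only for sequences that the tables would list.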
